A study of Mus musculus with 31 samples.

Results

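The genes described here are 9 members of the cholinergic system, measured in the brain of newborn mice. They are Chat and Ache, the enzymes that make and break down acetylcholine, the muscarinic receptor genes Chrm1, Chrm2, Chrm3 and Chrm4, and the nicotinic receptor subunit genes Chrna4, Chrna7 and Chrnb2. They were taken from a list of names and found on the arrays through the RefSeq accession of each probe, among 19902 gene symbols in all. Each gene is given by its brightest probe, that is the probe with the highest mean signal over both channels. This rule uses no measured ratio. All 9 had a probe, and 8 of them were tested in at least 1 of the 8 groups of arrays.

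The data are 31 arrays with 2 colours, each carrying a pool labelled with Cy5 and a pool labelled with Cy3. A value is the log2 ratio of Cy5 to Cy3, so 0 means equal signals and 1 a doubling. Animals were NMRI mice aged 5 days. Per the methods each pool held RNA of 6 ipsilateral hemispheres, whereas the supplement of the study gives 3 hemispheres per replicate. The methods also say that the pups of a time point came from more than 1 litter. The spread between arrays is thus a spread between pools. In the MgSO4 arrays, pools from mice given MgSO4 (600 mg/kg, Cy5) were compared with control pools (Cy3) after 3 h (4 arrays), 6 h (7), 12 h (4) and 24 h (4). The labels give the subcutaneous route and PBS controls, the methods the intraperitoneal route and untreated controls. In the HI arrays, pools taken 3 h (3 arrays) and 12 h (3) after hypoxia-ischemia were labelled with Cy5 and control pools with Cy3. Hypoxia-ischemia here is a right carotid ligature followed by a period of low oxygen. The titles name the controls of the HI arrays as naive mice, and per the methods controls had no intervention. Injection, anaesthesia, surgery and low oxygen therefore cannot be told apart in the HI ratios. A treatment label of the Cy5 pools of these arrays names MgSO4, against their titles, source and the methods, so they are treated here as HI without MgSO4, in mice that had PBS as their titles say. Per the study, the MgSO4 and HI arrays (3 at 3 h, 3 at 12 h) compared MgSO4 before HI with saline before HI. The titles instead name uninjured MgSO4 mice as the reference, so whether both pools were injured is not settled. The methods and the design text put the pools with MgSO4 before HI in Cy5, and a figure of the study puts them in Cy3. Values of these arrays are therefore given by channel, and their direction is not settled. No array has the dyes exchanged, and a difference between the dyes at a probe therefore remains in its ratio.

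Acetylcholine is made from choline and acetyl-CoA by choline acetyltransferase (Chat), packed in vesicles by the transporter Slc18a3, and hydrolysed in the synaptic cleft by acetylcholinesterase (Ache). It acts on muscarinic receptors, which are coupled to G proteins (Chrm1 and Chrm3 through Gq, Chrm2 and Chrm4 through Gi and Go), and on nicotinic receptors, which are ion channels. Chrna4 and Chrnb2 form the main high-affinity nicotinic receptor of the brain, and Chrna7 forms a channel of its own. In the forebrain, cholinergic neurons are few, lying mostly in the basal forebrain and the striatum. The axons of those in the basal forebrain reach the whole cortex, where the receptors are borne by many kinds of neurons.

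Detection separated the members. Ache (probe A_55_P2109326), Chrm1 (A_55_P2055262) and Chrnb2 (A_52_P222026) were well above background in both channels on all 31 arrays. Chrna4 (A_52_P350750) was well above background in at least 1 channel on 30 arrays, Chrm3 (A_55_P1955681) on 31 and Chrna7 (A_51_P108228) on 29. Chrm2 (A_55_P2055284) reached this level on 17 arrays, and Chat (A_55_P1959430) and Chrm4 (A_52_P88054) on 8 arrays each. Thus for Chat and Chrm4 most ratios compare signals that are not well above background and carry no reliable size. Testing in a group required a signal well above background, in 1 channel or both, on 66.7% or more of its arrays. By this rule Chrm4 was tested in 0 groups, Chat in 1, Chrm2 in 5, and the other 6 members in all 8. The share of spots well above background ranged from 54.4% to 70.2% in Cy5 and from 45.2% to 69.7% in Cy3 over the arrays. Of the other genes that mark cholinergic neurons, Slc18a3 was well above background in Cy5 on 31 arrays, Lhx8 on 31, Isl1 on 31 and Slc5a7, the choline transporter, on 22. All 10 neuron markers, all 8 astrocyte markers and all 8 microglia markers were well above background in both channels on all 31 arrays.

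Over the 31 arrays, the ratios of Ache and Chrna4 correlated at r = 0.76 (Pearson), those of Chrna4 and Chrnb2 at r = 0.74 and those of Ache and Chrnb2 at r = 0.70. These are descriptions over arrays that share slides. Chrm1 ran with them too (r = 0.75 with Chrna4, 0.63 with Chrnb2 and 0.41 with Ache). Running together is not particular to these members, since other genes ran closer to Ache, such as Eef1a2 (r = 0.96) and Ppp2r1a (0.96). The promoters of Ache, Chrna4 and Chrnb2, which lie on different chromosomes, are shown as examples of members whose ratios ran together. Whether the promoters bear on the ratios was not tested. They are the RefSeq sequences of build GRCm38.p6, from 250 bases before to 50 bases after the start of the gene. Capitals mark the motifs GGGCGG (the GC box bound by Sp1) and GCGGGGGCG (bound by Egr1), searched on both strands, and overlapping matches are merged in capitals.
Ache, chr5:137288004-137288303, plus strand: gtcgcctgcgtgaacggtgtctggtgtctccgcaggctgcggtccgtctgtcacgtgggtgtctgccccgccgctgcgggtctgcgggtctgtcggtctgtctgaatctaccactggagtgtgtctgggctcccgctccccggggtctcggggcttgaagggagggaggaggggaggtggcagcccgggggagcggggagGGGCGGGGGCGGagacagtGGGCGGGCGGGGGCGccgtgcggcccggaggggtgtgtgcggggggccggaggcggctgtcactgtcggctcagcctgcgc
Chrna4, chr2:181039128-181039427, minus strand: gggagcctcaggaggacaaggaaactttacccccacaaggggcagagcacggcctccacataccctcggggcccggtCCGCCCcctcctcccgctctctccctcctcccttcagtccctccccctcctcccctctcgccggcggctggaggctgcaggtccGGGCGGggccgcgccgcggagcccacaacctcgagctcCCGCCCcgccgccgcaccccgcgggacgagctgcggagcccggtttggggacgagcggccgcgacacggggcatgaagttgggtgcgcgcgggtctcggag
Chrnb2, chr3:89764583-89764882, minus strand: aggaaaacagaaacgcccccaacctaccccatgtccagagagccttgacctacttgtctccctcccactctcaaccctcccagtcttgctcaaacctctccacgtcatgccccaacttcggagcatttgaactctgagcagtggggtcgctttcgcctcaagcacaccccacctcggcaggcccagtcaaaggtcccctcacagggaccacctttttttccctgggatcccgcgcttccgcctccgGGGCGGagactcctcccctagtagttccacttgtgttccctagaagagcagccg
The Ache promoter held 4 matches of GGGCGG and 2 of GCGGGGGCG, the Chrna4 promoter 3 and 0, and the Chrnb2 promoter 1 and 0. The GC box was found in 6 of the 8 members whose promoter was in the table, and in 35.7% of all 32851 promoters. The Egr1 motif was found in 2 of the 8 (Ache and Chrna7) and in 2.91% of all promoters. The Ache promoter is also rich in G and C (74%), as is that of Chrna4 (74.3%), against 59% for Chrnb2. A match is a string of letters and does not show that a factor binds there.

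No member was called in any of the 8 groups, a call being an adjusted p under 0.05 over all probes tested (limma, Benjamini-Hochberg) and a fold change of 1.5 or more. After MgSO4 this was 0 of 7 members tested at 3 h (0% of all probes tested were called), 0 of 6 at 6 h (0.0284%), 0 of 6 at 12 h (0%) and 0 of 6 at 24 h (0.00555%). After HI it was 0 of 7 at 3 h, where 3.79% of all probes were called, and 0 of 7 at 12 h (0.0106%). The MgSO4 and HI arrays gave 0 of 8 at 3 h, where 7.62% of all probes were called, and 0 of 7 at 12 h (0%). With so few members tested, a count of 0 lies near these shares. Members with an unadjusted p under 0.05 numbered 0, 1, 1 and 1 at 3, 6, 12 and 24 h after MgSO4, against 9.02%, 13.2%, 15.7% and 11.1% of all probes. They numbered 1 and 3 at 3 h and 12 h after HI, against 36.1% and 27.6%. They numbered 1 and 4 at 3 h and 12 h on the MgSO4 and HI arrays, against 30.2% and 26.6%. The median ratio of the members tested lay near that of all genes at 3 h after MgSO4 (0.03 against -0.01) and on the MgSO4 and HI arrays at 3 h (0.06 against -0.04). It was farthest from it at 12 h after HI (0.41 against 0.00). The plot of the ratio of each gene on each array shows these values.

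**Figure D1:**
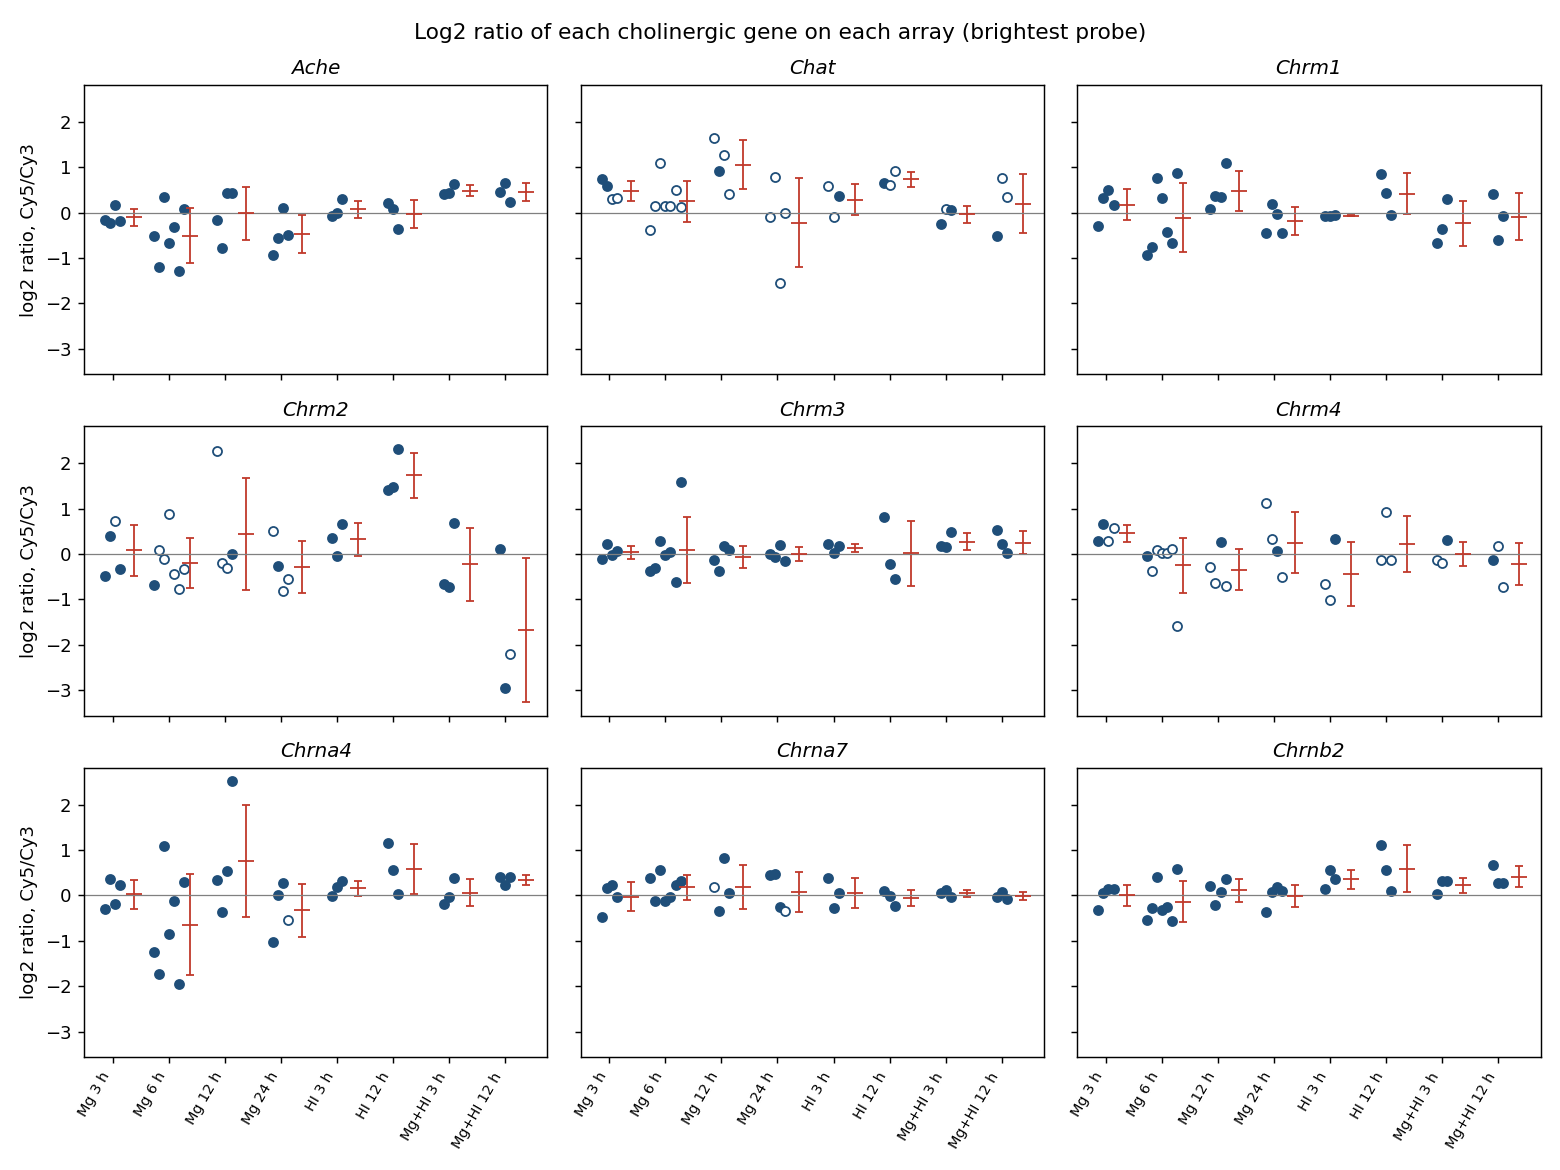
Log2 ratio of Cy5 to Cy3 (vertical axis) of each of the 9 cholinergic genes on each of the 31 arrays, by group (Mg, MgSO4 against control; HI, HI against control; Mg+HI, MgSO4 and HI arrays). Open points are arrays where neither channel was well above background, and red marks are the mean with the SD of all arrays of the group; Chat and Chrm4 are mostly open, and Chrm2 lies between 1.41 and 2.31 at 12 h after HI.

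Ache, which ends the action of acetylcholine, had ratios near 0 at 3 h after MgSO4 (-0.17, -0.22, 0.17 and -0.19). At 6 h they ranged from -1.28 to 0.34, with a median of -0.52, and 2 of 7 arrays were above 0. At 12 h they were -0.17, -0.78, 0.43 and 0.44. Arrays of 1 group thus lay on both sides of 0 at each of these times. At 24 h they were -0.93, -0.55, 0.09 and -0.50, with 3 of 4 below 0. The mean was -0.50 ± 0.60 (SD, n = 7 arrays) at 6 h (limma, adjusted p = 0.336) and -0.47 ± 0.42 (n = 4) at 24 h (adjusted p = 0.397), so neither passed the test. Because these are whole hemispheres, fewer cells of a type and less RNA per cell cannot be told apart in any ratio. After HI, Ache had ratios of -0.07, 0.00 and 0.29 at 3 h, and of 0.20, 0.08 and -0.37 at 12 h, again on both sides of 0. All 6 MgSO4 and HI arrays gave ratios above 0. They were 0.40, 0.42 and 0.62 at 3 h and 0.46, 0.65 and 0.24 at 12 h. The mean of 0.48 ± 0.12 (n = 3) at 3 h had an adjusted p of 0.0408, and its fold of 1.39 lay under the 1.5 required for a call. Leaving out replicate 2 gave 0.51 with an adjusted p of 0.206, leaving out replicate 3 gave 0.41 with an adjusted p of 0.0641, and the test without a filter on dim probes gave an adjusted p of 0.0775. The mean at 12 h was 0.45 ± 0.21 (n = 3, adjusted p = 0.105).

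A further probe of Ache (A_55_P2109327), also well above background in both channels on all 31 arrays, did not show this. Its ratios on the MgSO4 and HI arrays were -0.04, 0.02 and 0.08 at 3 h and -0.20, 0.01 and 0.03 at 12 h. Its mean at 3 h was 0.02 (adjusted p = 0.906). The ratios of both probes correlated at r = 0.81 over the 31 arrays, and after MgSO4 the dimmer probe lay between -0.90 and 0.00 at 6 h. Its mean at 6 h, -0.41 ± 0.33 (n = 7), was below 0 on 6 arrays and listed at 0.00 on the other, with an adjusted p of 0.241. In a comparison of both probes on each array, the brightest probe lay above the dimmer probe on every MgSO4 and HI array. Some MgSO4 arrays also had unlike ratios of the probes. On replicate 2 at 6 h the brightest gave -1.19 and the dimmer -0.52, and on replicate 4 at 12 h they gave 0.44 and -0.10. The ratio of Ache on the MgSO4 and HI arrays therefore rests on 1 of its 2 probes, and which transcripts each probe reads was not tested.

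**Figure D2:**
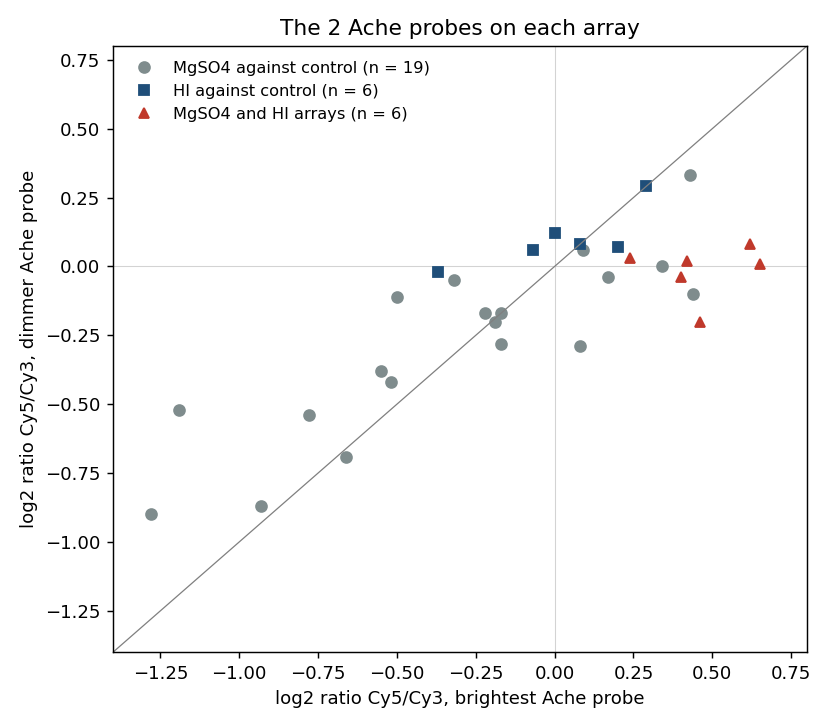
Log2 ratio of Cy5 to Cy3 of the brightest Ache probe (horizontal axis) and of the dimmer Ache probe (vertical axis) on each of the 31 arrays, with the line of equal ratios. On the 6 MgSO4 and HI arrays (triangles) the brightest probe lies between 0.24 and 0.65 and the dimmer probe between -0.20 and 0.08.

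Chat, which makes acetylcholine and defines cholinergic neurons, was well above background in Cy5 on 8 of 31 arrays and in Cy3 on 5. It could be tested only on the MgSO4 and HI arrays at 3 h, where its ratios were -0.25, 0.08 and 0.06 (mean -0.03 ± 0.18, n = 3, adjusted p = 0.865). At the other times its ratios spread from -1.56 to 1.65, most of them between signals not well above background. No direction is read from them.

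Chrm1, the main muscarinic receptor of the cortex and hippocampus, had ratios of -0.30, 0.33, 0.49 and 0.16 at 3 h after MgSO4. At 6 h they ranged from -0.93 to 0.87 with a median of -0.43. At 12 h all 4 were above 0 (0.08, 0.36, 0.34 and 1.1). Their mean of 0.47 ± 0.44 (n = 4) had an unadjusted p of 0.0378 and an adjusted p of 0.315 in limma, and thus did not pass. At 24 h they were -0.45, 0.18, -0.03 and -0.44. At 3 h after HI the 3 arrays gave -0.07, -0.07 and -0.06, the narrowest spread among the members, and at 12 h they gave 0.85, 0.43 and -0.05. Chrm1 lay on both sides of 0 at both times on the MgSO4 and HI arrays, with ratios of -0.66, -0.36 and 0.30 at 3 h and of 0.41, -0.61 and -0.07 at 12 h. A dimmer Chrm1 probe was well above background on 11 arrays in either channel and was tested in 1 group only, with a mean of -0.33 (adjusted p = 0.249) on the MgSO4 and HI arrays at 3 h.

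Chrm2, a muscarinic receptor found both on cholinergic nerve endings and on other neurons, showed the largest mean ratios of the members tested. At 12 h after HI its ratios were 1.41, 1.47 and 2.31. The Cy5 signal was well above background on all 3 of these arrays and the Cy3 signal of the control pools on none. Hence only a bound can be given from the background-subtracted signals, with average signals made alike in distribution across arrays. By them Chrm2 was at least 2.32-fold higher in Cy5 (log2 1.21). The comparison is with the higher of the dimmest detected signal and its own signal in Cy3. The bound does not hold under the other corrections given below. The measured mean was 1.73 ± 0.50 (n = 3), with an unadjusted p of 0.000323 and an adjusted p of 0.0735 in limma, so the difference did not pass the test over all probes. The size depends on the background correction and normalization, which were changed together, since the mean was 0.26 (adjusted p = 0.0911) with normexp, a correction of raw signals that keeps them positive, and loess, and 0.40 (adjusted p = 0.0581) with loess and no background subtraction. At 3 h after HI both channels were well above background on all arrays, with ratios of 0.36, -0.05 and 0.67 (mean 0.32 ± 0.36, adjusted p = 0.18).

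On the MgSO4 and HI arrays Chrm2 had ratios of -0.65, -0.73 and 0.69 at 3 h. At 12 h they were 0.11, -2.94 and -2.20, where Cy5 was well above background on replicate 1 only and Cy3 on replicates 1 and 2. Hence 2 arrays were far below 0 and the other was near 0, and the mean of -1.68 ± 1.59 (n = 3) did not pass (adjusted p = 0.153). Given by channel, as the log2 signal minus the 75th percentile of its array, the Cy5 level of Chrm2 was -3.71, -4.06 and -4.05 on the HI arrays at 12 h and -4.08, -6.95 and -7.48 on the MgSO4 and HI arrays. The Cy3 level was -5.12, -5.53 and -6.36 on the HI arrays at 12 h and -4.19, -4.02 and -5.29 on the others. The Cy5 difference at 12 h was -2.23 ± 0.82 (SE, adjusted p = 0.336) and the Cy3 difference 1.17 ± 0.43 (SE, adjusted p = 0.36). After MgSO4 alone, Chrm2 was tested at 3 h only, with ratios of -0.48, 0.39, 0.72 and -0.32 (mean 0.08 ± 0.57, n = 4, adjusted p = 0.933).

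**Figure D3:**
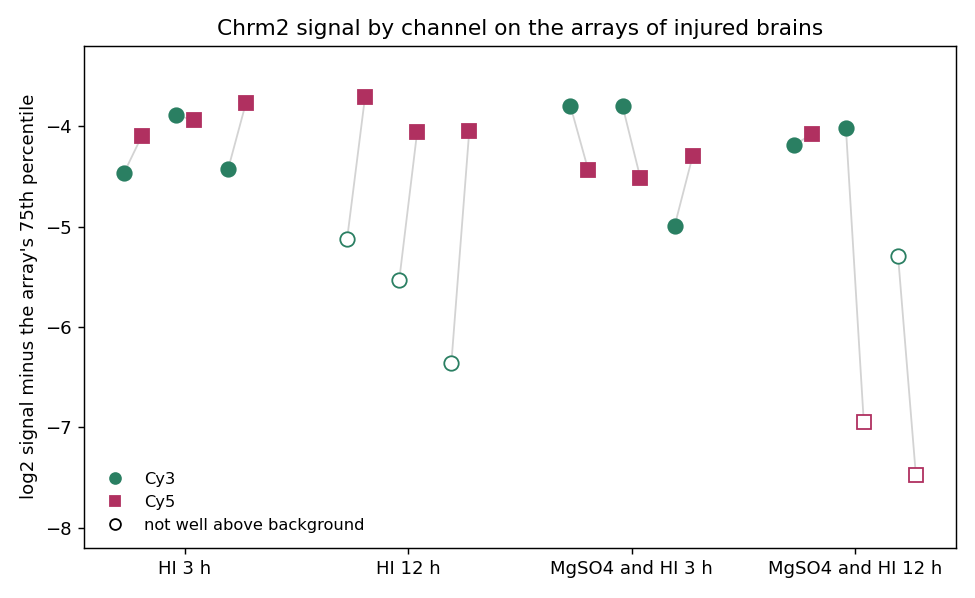
Chrm2 signal in Cy3 (circles) and Cy5 (squares) on each HI array and each MgSO4 and HI array. The vertical axis is the log2 signal minus the 75th percentile of the array. A line joins the channels of 1 array and open symbols are not well above background. At 12 h the Cy3 signals of the HI arrays (-5.12 to -6.36) and the Cy5 signals of replicates 2 and 3 of the MgSO4 and HI arrays (-6.95 and -7.48) are open.

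Chrm3, coupled to Gq like Chrm1, had small mean ratios in all 8 groups. They ranged from -0.06 at 12 h after MgSO4 to 0.27 on the MgSO4 and HI arrays at 3 h. In the MgSO4 and HI groups its ratios were above 0 on all 3 arrays at 3 h (0.18, 0.15 and 0.48, adjusted p = 0.173) and at 12 h (0.53, 0.21 and 0.02, adjusted p = 0.274). Both times thus had ratios of 1 sign and neither mean passed the test. At 6 h after MgSO4 its ratios ranged from -0.61 to 1.59, and the highest came from replicate 7, where Cy3 was not well above background. Chrm4, a muscarinic receptor found on striatal neurons, was not tested in any group. Its ratios ranged from -1.58 to 1.12, and it was well above background on 8 arrays.

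Chrna4 and Chrnb2, which assemble into a single receptor, had similar patterns (r = 0.74). Chrna4 ran as closely with Ache (0.76) and Chrm1 (0.75). At 6 h after MgSO4 the ratios of Chrna4 ranged from -1.94 to 1.1 (median -0.84), and those of Chrnb2 from -0.56 to 0.59 (median -0.27). At 12 h Chrna4 gave 0.35, -0.37, 0.53 and 2.52, and its Cy3 signal on the array with 2.52 was not well above background. In each of these groups some arrays were above 0 and others below it. Chrnb2 was above 0 on all 3 arrays at 3 h after HI (0.14, 0.57 and 0.36), with a mean of 0.35 ± 0.22 (n = 3, unadjusted p = 0.0161, adjusted p = 0.0737). At 12 h after HI, Chrna4 gave 1.15, 0.57 and 0.04, and Chrnb2 gave 1.12, 0.55 and 0.10, so that both were highest on replicate 1 and lowest on replicate 3. Their means were 0.58 ± 0.55 (adjusted p = 0.175) and 0.59 ± 0.51 (adjusted p = 0.158). Without replicate 3, 4 members were called at 12 h after HI, namely Chrm1 (0.64), Chrm2 (1.44), Chrna4 (0.86) and Chrnb2 (0.83), when 17.3% of all probes were called. Without replicate 1 Chrm2 was called (1.89), when 2.66% of all probes were. Replicate 3 was the lowest array for Chrm1, Chrna4 and Chrnb2, and replicate 1 for Chrm2. Leaving out the lowest array in itself raises a mean, and fits on so few arrays support no call. Chrnb2 was above 0 on all 6 MgSO4 and HI arrays, with ratios of 0.03, 0.32 and 0.31 at 3 h and of 0.68, 0.28 and 0.27 at 12 h (adjusted p = 0.232 and 0.131). Chrna4 gave 0.41, 0.22 and 0.40 at 12 h (mean 0.34 ± 0.11, adjusted p = 0.124).

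Chrna7, the subunit of the homomeric nicotinic channel, had means between -0.05 and 0.18 in the 8 groups. Its ratios ranged from -0.47 to 0.82 over the arrays, and no group had all its arrays on 1 side of 0. Spots of its probe were left out as outliers on 18 of the 31 arrays, which happened for no other member. The lowest adjusted p of this gene among the 8 groups was 0.517, at 6 h after MgSO4. Over the 31 arrays its ratios correlated with those of the other tested members at r = 0.01 to 0.23.

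The 6 h ratios have no settled direction. Over all probes tested, pairs of the 7 arrays correlated at -0.42 to 0.86, and 5 of 21 pairs were under -0.3. The arrays that opposed the others were replicates 3 and 7, which lie on the same slide (slide 5), although all 7 carry the same channel labels. Several members were divided in the same way. On replicates 3 and 7, Ache gave 0.34 and 0.08, Chrm1 0.77 and 0.87, Chrna4 1.1 and 0.29, and Chrnb2 0.41 and 0.59. The dimmer Ache probe gave 0.00 and -0.29 on these 2 arrays and was thus not above 0 there. In Cy3, 49.9% and 45.2% of their spots were well above background, and 52.3% on the 12 h array of slide 5, the 3 lowest of the 31 arrays. On the other 5 arrays Ache, Chrna4 and Chrnb2 were below 0 throughout, and Chrm1 was below 0 on 4. At 12 h the arrays of slide 5 and of slide 4 were both above 0 for these 4 genes, with higher ratios on slide 4 for Chrm1 (1.1 against 0.34), Chrna4 (2.52 against 0.53) and Chrnb2 (0.37 against 0.08), although slide 4 held the lowest 6 h ratios of Ache and Chrna4. The 24 h array of slide 5 gave 0.09 for Ache, -0.03 for Chrm1, 0.28 for Chrna4 and 0.18 for Chrnb2. With the sign of replicates 3 and 7 turned, the means at 6 h were -0.63 for Ache, -0.58 for Chrm1, -1.04 for Chrna4 and -0.42 for Chrnb2, with adjusted p of 0.0184, 0.0213, 0.0104 and 0.00867, and Ache and Chrna4 would be called, with 8.47% of all probes. Without slide 5 the same 2 genes were called, at -0.79 (adjusted p = 0.0167) and -1.18 (adjusted p = 0.0181), with 8.51% of all probes. With 1 mean per slide no member was called, and the adjusted p was 0.801 for both genes. Both fits rest on arrays picked because their ratios opposed the others, which in itself lowers the p-values, and they support no call. The part of the slide in the ratios was not tested.

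**Figure D4:**
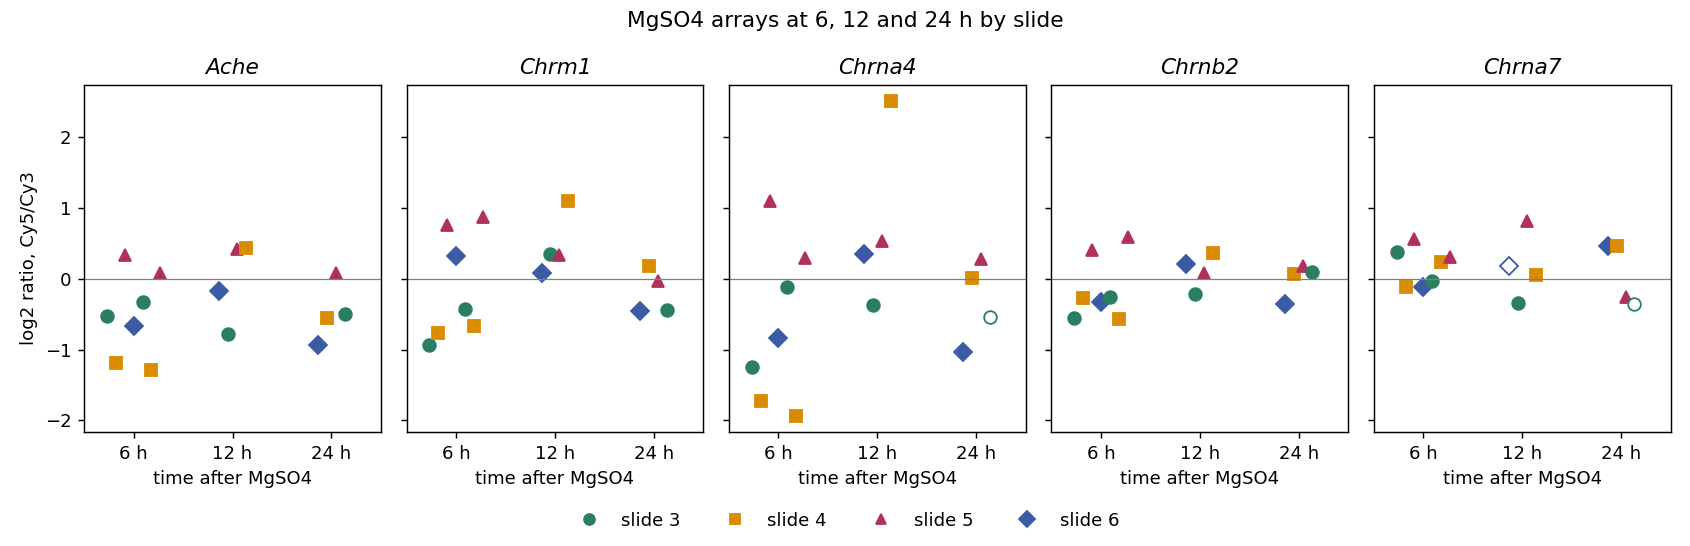
Log2 ratio of Cy5 to Cy3 (vertical axis) of 5 members on the MgSO4 arrays at 6, 12 and 24 h (horizontal axis), with the slide of each array as colour and symbol; open symbols are arrays where neither channel was well above background. At 6 h the arrays of slide 5 lie above 0 for all 5 genes, and for Ache, Chrna4 and Chrnb2 the arrays of the other slides lie below 0.

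The differences between times were also tested. Between 12 h and 3 h after HI, 0 of 7 members were called (0% of all probes, 17.1% having an unadjusted p under 0.05), and Chrm2 had the largest difference, 1.41 ± 0.29 (SE, unadjusted p = 0.00206, adjusted p = 0.119). On the single slide that holds an array of both times this difference was 0.75. On the MgSO4 and HI arrays, 0 of 8 members were called between these times (0%), with differences from -1.45 to 0.28, and 0 had an unadjusted p under 0.05 (4.21% of all probes). Between 12 h and 6 h after MgSO4, 0 of 6 were called (0.00553%), and Chrna4 had the largest difference, 1.40 ± 0.54 (SE, adjusted p = 0.357). It was the 1 member with an unadjusted p under 0.05, against 13.8% of all probes. Without slide 5 it was 2.01 (adjusted p = 0.033), and 2 members (Chrna4 and Chrm1) were called, with 9.86% of all probes. Within the 4 slides that hold both times the difference was 0.32, 4.35, -0.16 and 1.20, and the 4.35 comes from slide 4, where Cy3 of the 12 h array and Cy5 of both 6 h arrays were not well above background. Between 6 h and 3 h 0 of 7 members were called (0%), and between 24 h and 6 h 0 of 6 (0%), with 0 members in either at an unadjusted p under 0.05 (4.41% and 3.29% of all probes). The 3 h arrays lie on slides of their own, so that slide and time cannot be told apart there.

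Each channel of the MgSO4 and HI arrays was set against the same channel of the HI arrays, which share their slides. In Cy3, 0 of 8 members were called at 3 h (0.294% of all probes) and 0 of 7 at 12 h (0%). In Cy5, 0 of 8 were called at 3 h, where 6.29% of all probes were called, and 0 of 7 at 12 h (0%). Members with an unadjusted p under 0.05 numbered 1 and 1 in Cy3 (13.2% and 13.3% of all probes at 3 h and 12 h), and 2 and 1 in Cy5 (28.4% and 13.1%). In Cy5 at 3 h, Chrm2 was lower on the MgSO4 and HI arrays by a log2 difference of -0.48 ± 0.12 (SE, adjusted p = 0.047) and Chrm3 higher by 0.56 ± 0.12 (SE, adjusted p = 0.0344), both under the 1.5-fold limit. The Cy5 levels of Chrm2 were -4.10, -3.94 and -3.77 on the HI arrays and -4.44, -4.52 and -4.30 on the MgSO4 and HI arrays. Those of Chrm3 were -3.97, -3.57 and -3.78 against -3.27, -3.25 and -3.10. Leaving out replicate 2 of the HI arrays brought Chrm3 past the limit (0.66, adjusted p = 0.0342), when 5.45% of all probes were called.

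Among 47 other genes of the cholinergic system on the arrays, namely the remaining enzymes, transporters and receptor subunits, the proteins that assemble or modulate nicotinic receptors, the transcription factors of cholinergic neurons and the transducers of muscarinic receptors, 30 to 36 were tested per group. A single one was called in the 8 groups. It was Bche, which codes for butyrylcholinesterase, the other enzyme that hydrolyses acetylcholine. At 3 h after HI its ratios were -0.57, -0.97 and -0.49 (mean -0.68 ± 0.26, n = 3, adjusted p = 0.0299 in limma), below 0 on all 3 arrays, in a group where 1.37% of all probes were called lower. The call was lost when any of the 3 replicates was left out (adjusted p from 0.058 to 0.0775), and the mean lay under 1.5-fold with normexp and loess (-0.40). On the HI arrays at 12 h its ratios were -0.83, -0.23 and -0.11 (adjusted p = 0.219). Of the 35 other genes tested at 3 h after HI, 24 had a positive mean and 11 a negative mean, and the median was 0.06. Among them Tmem35a (-0.33, adjusted p = 0.0411), which helps to assemble Chrna7 channels, passed the adjusted threshold below 1.5-fold. The transducers of muscarinic receptors (13 tested at 12 h after MgSO4, among them G protein subunits and potassium channels) had a median of 0.34 at that time, 12 of 13 means were positive, 0 were called, and 6 had an unadjusted p under 0.05 in the positive direction and 1 in the negative, against 15.7% of all probes in either direction. At 12 h after MgSO4 the means of 10 of 10 neuron markers (median 0.21) and 6 of 6 cortex markers (0.31) were positive too. Of 8 microglia markers 2 were positive (median -0.20). The positive means are thus not particular to the transducers. The 16 nicotinic subunit genes on the arrays had 5 to 7 tested members per group and 0 calls. Of those never tested, Chrna3, Chrna9, Chrna10, Chrnb3 and Chrne were well above background on 0 arrays, and Chrna1, Chrnb1, Chrnd and Chrng on 1 to 4 arrays in the channel where they were seen most.

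Among the genes whose ratios were most like those of Ache over the 31 arrays, of 13208 genes tested in all groups, were Eef1a2 (Pearson r = 0.96), Ppp2r1a (0.96), Tecr (0.95) and Ptov1 (0.94). For Chrm1 they were Samd4b (0.94), Kcnma1, Slc7a1, Arhgap35 and Larp4b (0.93 each). For Chrm4, which was tested in 0 groups, they were Riox2 (0.64), Mllt10, Cd300lf and Obsl1 (0.55 each) and Gbp6 (0.54). Chrm4 was well above background in neither channel on 23 of the 31 arrays, so no likeness is read from its correlations. Those of Ache and Chrm1 are over arrays that share slides and are given as a description of likeness.

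Over the 31 arrays the members' median ranged from -0.63 to 0.85. It had the same sign as the median of 7 cortex markers (of which 6 or 7 were tested per group) on 26 arrays and as the median of 10 neuron markers on 26 arrays. On the others the signs differed or a median was 0, as on replicate 4 at 6 h after MgSO4, with -0.22 for the members, 0.15 for cortex and 0.02 for neurons. The cortex markers' median ranged from -0.66 to 0.86 and that of neuron markers from -0.55 to 0.60. The lists for other cells or regions shared the sign on fewer arrays, from 9 for microglia to 21 for the oligodendrocyte lineage, with 14 for cholinergic neurons. At 12 h after HI the members' medians were 0.85, 0.43 and -0.05 on replicates 1, 2 and 3, and the cortex markers' medians 0.86, 0.26 and -0.02. At 6 h after MgSO4 the members' medians were 0.49 and 0.45 on replicates 3 and 7, beside 0.48 and 0.43 for the cortex markers, and -0.53, -0.54 and -0.63 on replicates 1, 2 and 6, beside -0.54, -0.47 and -0.66. The part of the sampled tissue or of the number of neurons in the members' ratios was not tested.

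**Figure D5:**
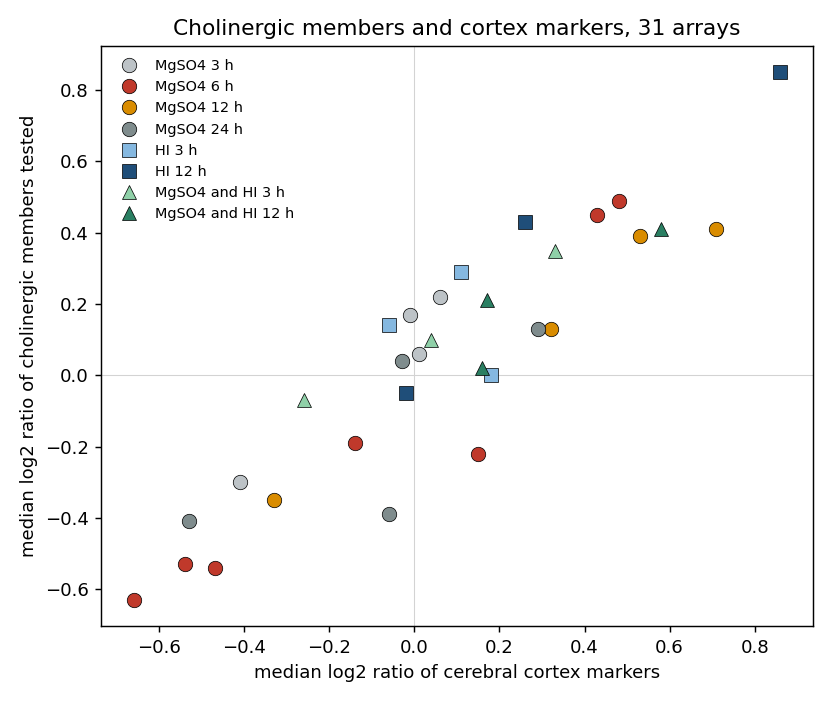
Median log2 ratio of the cerebral cortex markers (horizontal axis) and of the cholinergic members tested in the group (vertical axis) on each of the 31 arrays, coloured by group. Both medians have the same sign on 26 arrays and run from -0.63 to 0.85 for the members and from -0.66 to 0.86 for the markers.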

How the data were processed

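The authors scanned the arrays with Agilent Feature Extraction 10.5.1.1, and the deposited intensity values are background-subtracted and dye-normalized within each array. The authors' series table holds log10 ratios of the same signals and was used as an alternative. The log2 ratio was computed from the processed signals, without outlier spots, and spots of a probe were averaged. Probes were named through RefSeq (GRCm38.p6), 69.6% with a single symbol, and symbols containing Rik were left out. No spot was saturated (0). Each group's mean was tested against 0 with limma 3.58.1 (R 4.3.3) and Benjamini-Hochberg adjustment over all probes tested, and differences between times or channels as contrasts. Figures used Python with matplotlib. Signal over background and the number of arrays limit the precision. All 9 members are named, and of the wider list those called (at most 8). The members and lists were chosen with earlier results of these data known. The tests were tested on simulated data. Alternatives covered the background correction, the normalization, the series table, the outlier spots, the filter, the probe, the slide and each replicate left out. Same-numbered HI and MgSO4 and HI arrays deviated together in Cy5 (r from 0.22 to 0.57 over 6 pairs), and the block by replicate number is given in the closing section. Pools taken 1 h 30 min after MgSO4 were not used here. For likeness, the genes with the highest correlation to Ache, Chrm1 and Chrm4 are named, and 1 gene is not reported here.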

Additional observations from a re-analysis of the deposited data

Results flagged for a closer look

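In the 25 sets of 4 to 7 arrays examined (1 gene in 1 group each), 2 held an array whose gap to its nearest neighbour was large against the range of the set, and chance gives about 1 in 20. Ache gave 0.17 on replicate 3 at 3 h after MgSO4, against -0.17 to -0.22 on the other 3 arrays. Chrm3 gave 1.59 on replicate 7 at 6 h after MgSO4, against -0.61 to 0.28 on the other 6 arrays, and on this array of slide 5 the Cy3 signal of Chrm3 was not well above background. The dimmer Ache probe gave -0.04 on the first of these arrays, its highest ratio of the 4. The second array had the fewest detected spots in Cy3 (45.2% well above background) and correlated at -0.22 to -0.37 with the 6 h arrays of other slides. The part of these in the values was not tested.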

How the results depend on the processing

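The count of members called, 0 in all 17 comparisons, stayed at 0 under most alternatives. It became 2 at 6 h after MgSO4 with the sign of replicates 3 and 7 turned and also without slide 5, 2 between 12 h and 6 h after MgSO4 without slide 5, and 1 (Chrm2) at 12 h after HI with the methods' t-test unadjusted (4.93% of all probes). With single arrays left out it ranged from 0 to 4 at 12 h after HI, from 0 to 1 on the MgSO4 and HI arrays at 3 h (Chrm2 at -0.69 without replicate 3, with 8.89% of all probes called), and from 0 to 1 in Cy5 at 3 h and at 12 h (Chrm2 at -3.27 without replicate 1 of the MgSO4 and HI arrays, with 0.0363% of all probes called). Leaving out slide 5, taking 1 mean per slide and the slide as a fixed block were chosen after seeing the data. The slide as a random block could be fitted only at 3 h and 6 h after MgSO4, where 0 members were called. With the replicate number as a block, 0 members were called in every comparison and no call changed, Chrm2 and Chrm3 in Cy5 at 3 h having an adjusted p of 0.0156 and 0.021. Between times, deviations of same-numbered arrays correlated at -0.3 to -0.04 after HI and at -0.5 to 0.05 on the MgSO4 and HI arrays. After MgSO4 they ranged from -0.3 to 0.71. The pairing between times was thus not borne out in the first 2 sets and was uneven after MgSO4.

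Some means changed sign. With normexp and loess they were -0.03 for Chrm2 and 0.00 for Chrm3 at 3 h after MgSO4, -0.03 for Chrm3 at 6 h, 0.01 for Ache and for Chrm3 at 12 h, 0.01 for Chrm3 at 24 h, -0.03 for Chrm3 and 0.01 for Chrna7 at 12 h after HI, and 0.01 for Chrna7 on the MgSO4 and HI arrays at 12 h. With loess and no background subtraction they were -0.02 for Chrm2 at 3 h and -0.03 for Chrm3 at 6 h after MgSO4, 0.00 for Ache at 12 h, -0.03 for Chrm3 at 12 h after HI, and 0.00 for Chrna7 on the MgSO4 and HI arrays at 12 h. With outlier spots kept, Chrna7 was 0.01 at 3 h after MgSO4. With the sign turned at 6 h, Chrm3 was -0.45 and Chrna7 -0.08. Without slide 5, Chrm3 was -0.26 at 6 h and Chrna7 -0.03 at 12 h. By the Ache probe with the largest ratio, the mean at 12 h after HI was 0.05.

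With 1 array left out, means crossed 0 as follows. At 3 h after MgSO4 they ranged from -0.14 to 0.26 for Chrm2, from -0.03 to 0.09 for Chrm3, from -0.08 to 0.14 for Chrna4, from -0.11 to 0.12 for Chrna7 and from -0.05 to 0.11 for Chrnb2. At 6 h the range was -0.28 to 0.02 for Chrm1 and -0.17 to 0.20 for Chrm3. At 12 h it was -0.17 to 0.23 for Ache, -0.14 to 0.04 for Chrm3 and -0.03 to 0.35 for Chrna7, and at 24 h -0.07 to 0.05 for Chrm3, -0.05 to 0.23 for Chrna7 and -0.07 to 0.11 for Chrnb2. At 3 h after HI it was -0.03 to 0.14 for Ache and -0.11 to 0.22 for Chrna7, and at 12 h -0.14 to 0.14 for Ache, -0.39 to 0.30 for Chrm3 and -0.12 to 0.04 for Chrna7. On the MgSO4 and HI arrays it was -0.09 to 0.07 for Chat, -0.69 to 0.02 for Chrm2 and -0.10 to 0.18 for Chrna4 at 3 h, and -0.34 to 0.17 for Chrm1 and -0.06 to 0.02 for Chrna7 at 12 h. The cause of these changes was not tested, beyond the fewer arrays of each fit.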
